A study of Mus musculus with 12 samples.

Results

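Oxidative phosphorylation is carried out by 5 protein complexes of the inner mitochondrial membrane, and 90 rows for their nuclear-encoded subunits were followed among the 55536 rows of a mouse islet count table. The rows were chosen by symbol alone: Nduf with a letter a, b, c, s or v and a number, the 4 Sdh genes, Uqcr genes, Cyc1, Cox4 to Cox8 genes and Atp5 genes. The pattern uses symbols and no measured value. The pattern matched 98 rows, and 8 rows with -ps in the symbol were left out. Of the 90 members, 38 belong to complex I, 4 to complex II, 9 to complex III, 21 to complex IV (with Ndufa4 and Ndufa4l2, named for complex I) and 18 to complex V. The annotation describes 4 members (Cox6c2, Ndufa11b, Ndufb4c and Ndufs6b) as processed pseudogenes, and the symbol Atp5o has 2 rows.

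Complex I takes electrons from NADH and complex II from succinate. Complex III passes them from ubiquinol to cytochrome c, and complex IV from cytochrome c to oxygen. Complexes I, III and IV pump protons, and complex V, the ATP synthase, uses the gradient to make ATP. In the beta cell, the rise of ATP that follows glucose oxidation closes potassium channels and starts insulin secretion. Except for complex II, each complex joins nuclear subunits to a few subunits encoded in the mitochondrial genome.

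Total RNA came from pancreatic islets of mice aged 16 weeks on a mixed strain background of C57BL/6J, in 12 libraries of 3 per group. The control groups are titled PTPN2 +/+ and carry the genotype label PTPN2 fl/fl. The other groups are labelled PTPN2 -/- and are called Ptpn2-bKO in the protocol, shortened here to bKO. PTPN2 is a tyrosine phosphatase that dampens cytokine signalling through JAK and STAT proteins. Each genotype was left untreated or was treated for 24 h with IFN-gamma, IL-1beta and TNF-alpha, which were dissolved in PBS with BSA and added to RPMI medium with serum. The study's title places the question in metabolic flux and in how beta cells withstand inflammation. The protocol names 3 control and 3 Ptpn2-bKO mice for 6 libraries per genotype, so libraries may share a mouse, and p-values then measure only the spread between these libraries. The promoter that drives Cre and the deleted exon were not given in the sources used here.

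Library totals ran from 47064061 to 107515565 counts. The label bKO was not matched by a lower Ptpn2 level. Ptpn2 averaged 31.0 ± 0.63 CPM (counts relative to the TMM-scaled library total; SD, n = 3) in untreated control islets and 35.3 ± 1.5 in untreated bKO islets, and 85.9 ± 6.6 and 101 ± 14 with cytokines. The genotype difference was 0.19 on the log2 scale untreated (adjusted p = 0.989) and 0.23 with cytokines (adjusted p = 0.26), and genotype is used below as a label. Ins1 and Ins2 were high in every library, while 7 of 10 beta-cell markers, 6 of 6 alpha-cell markers and 7 of 7 endothelial markers fell and 8 of 8 macrophage markers rose with cytokines in both genotypes. Acinar markers fell in 7 of 7 tested genes in control and 3 of 7 in bKO islets, ductal markers rose in 1 and fell in 3 of 6 and rose in 1 and fell in 0, and stellate-cell markers rose in 1 and fell in 1 of 6 and rose in 3 and fell in 1. Summed macrophage markers went from 155–216 CPM in the untreated libraries to 453–607 with cytokines. One library stood apart: replicate 2 of the cytokine-treated bKO group had a beta-marker sum of 90117 CPM against 144688–177722 in the other treated libraries, a ductal sum of 6092 against 1346–2756 and a stellate sum of 7951 against 1481–4235. The part of these cell-type differences in the results below was not tested. In bulk islets, fewer cells of a type and less RNA per cell cannot be told apart.

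Cytokines raised more of the nuclear-encoded subunit genes than they lowered, and the rise was uneven between complexes. Of the 83 members with enough counts to test, 37 rose and 11 fell in control islets, and 43 rose and 7 fell in bKO islets (edgeR's quasi-likelihood test, Benjamini-Hochberg adjusted p under 0.05 over 19800 genes). Over all genes tested, 26.8% were called higher and 33.9% lower in control islets, and 28.8% and 33.6% in bKO islets, where the members gave 44.6% and 13.3%, and 51.8% and 8.43%. The median log2 difference of the members was 0.15 in control and 0.18 in bKO islets, against −0.10 and −0.06 for all genes tested. The members are short and well expressed: their median exon length was 1569 bases against 3587 and their median level 64.0 CPM against 10.2. Among the 1537 tested genes at 10 to 1000 CPM and no longer than 2432.5 bases, the upper quartile of the members, 45.5% were higher and 24.4% lower in control islets, and 50.9% and 21.9% in bKO islets. The share of members called higher is therefore near that of genes of like level and length, and the share called lower is below it. The median log2 difference of these 1537 genes was 0.20 in control and 0.27 in bKO islets, above the members' 0.15 and 0.18. The higher median of the members against all genes is thus no trait of the members alone.

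These directions are relative to the bulk of the genes, as set by the TMM scaling of edgeR. Scaled by library totals alone, the median of all genes moved by −0.23, and 19 members were higher and 27 lower in control islets, and 22 and 25 in bKO islets. With DESeq2's size factors the counts were 47 and 7, and 44 and 6. The members lay 0.25 above the median of all genes in control islets and 0.24 above it in bKO islets under all of these scalings. A change of scaling moves all genes of a comparison by nearly the same amount. This distance is therefore nearly fixed by construction and is no check of the result. As a share of all counts, the members together held 0.658% ± 0.0050 (SD, n = 3) in untreated and 0.660% ± 0.028 in treated control islets, and 0.673% ± 0.022 and 0.681% ± 0.015 in bKO islets. No member was called in opposite directions under different scalings.

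**Figure D1:**
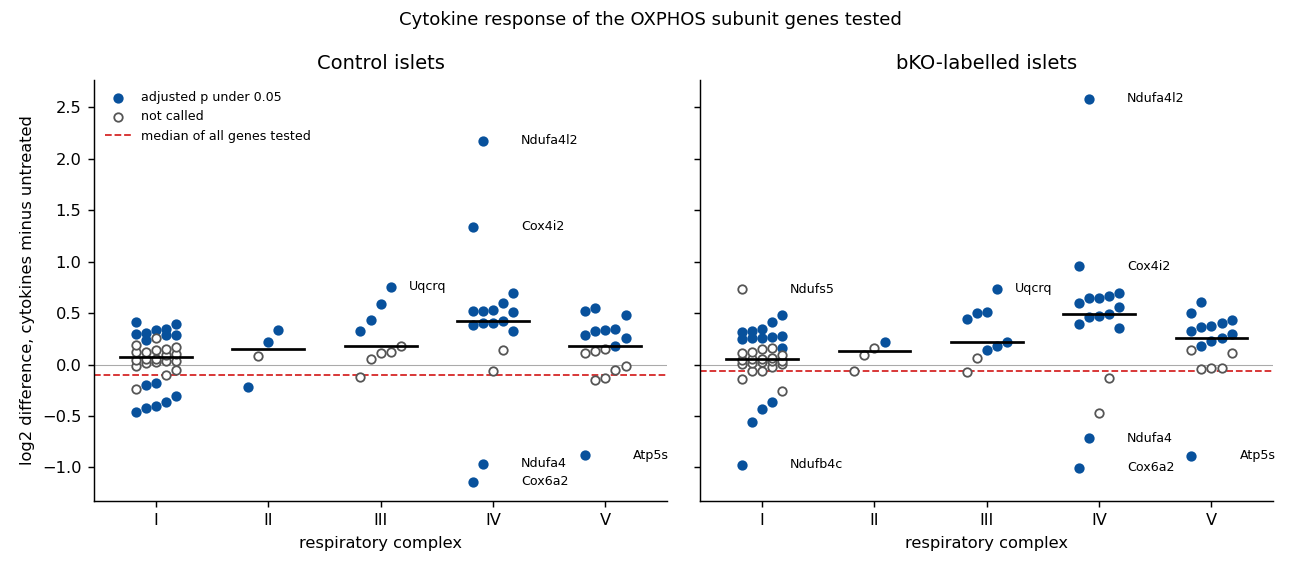
Log2 difference of cytokine-treated against untreated islets (vertical axis) for each tested member by complex, in control (left) and bKO islets (right), with called members filled, black lines at the medians of each complex and a dashed line at the median of all genes tested. Complex IV lies highest, with medians of 0.42 and 0.49, and complex I lies lowest, with medians of 0.07 and 0.06.

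Complex I stood at the low end of the response and complex IV at the high end. In control islets 9 of 36 tested complex I members rose and 7 fell, 2 of 4 complex II members rose and 1 fell, 4 of 9 complex III members rose and none fell, 13 of 17 complex IV members rose and 2 fell, and 9 of 17 complex V members rose and 1 fell. In bKO islets the counts were 11 and 4 for complex I, 1 and 0 for complex II, 7 and 0 for complex III, 13 and 2 for complex IV and 11 and 1 for complex V. The share of complex I called higher, 25% in control and 30.6% in bKO islets, was near the 26.8% and 28.8% of all genes. Its share called lower was 19.4% and 11.1%, against 33.9% and 33.6% of all genes. Against the 1537 genes of like level and length described above, complex I lay lower in both shares. Of those genes 45.5% and 50.9% were called higher and 24.4% and 21.9% lower. For complex IV, 76.5% were higher and 11.8% lower in each genotype. The median log2 differences in control islets were 0.07, 0.15, 0.18, 0.42 and 0.18 for complexes I to V, and 0.06, 0.13, 0.22, 0.49 and 0.26 in bKO islets. The complex I medians moved with single libraries: in control islets the median was 0.04 without replicate 2 and 0.12 without replicate 3 of the treated group. In bKO islets it was 0.03 without replicate 1 and 0.19 without replicate 2 of the treated group, and 0.04 without replicate 2 and 0.09 without replicate 3 of the untreated group. Complex IV gave 13 higher and 2 lower members with any 1 library left out. With library totals alone it gave 12 and 2 in both genotypes, while complex I turned to 1 higher and 16 lower in control and 2 and 16 in bKO islets, complex III gave 3 and 2, and 4 and 2, and complex V gave 3 and 5, and 4 and 4.

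Promoter sequence was set beside these responses, to describe which members hold the motifs of factors known to bind respiratory genes. RefSeq promoter windows (GRCm38.p6; 250 bases before and 50 after the start) were matched by symbol for 68 of the 89 member symbols and for 27025 genes in all. Exact matches were searched on both strands. The NRF1 motif CGCATGCG stood in 8 member windows (11.8%, against 1.91% of all windows), the ETS motif CCGGAAG, bound by GABP, in 15 (22.1% against 9.12%), and the YY1 motif AAGATGGCG in 6 (8.82% against 1.49%). The SP1 motif GGGCGG stood in 28 (41.2% against 35.9%), the ERR motif TCAAGGTCA in 2 (2.94% against 0.407%), and the STAT motif known as GAS, TTCNNNGAA, in 5 (7.35% against 8.47%). Different motifs overlapped in 1 pair within the member windows. Of 31 complex I windows, 2 held the NRF1, 4 the ETS and 5 the YY1 motif, and of 14 complex IV windows 1, 3 and 0 held them. The stretches below come from 2 members that rose (Cox6a1, Uqcrh), Sdhd, which rose little, Ndufa11, which fell in control islets, and Ndufa4, which fell in both genotypes. A match stood before Cox6a1, Uqcrh and Sdhd, and before Ndufa11, whose fall in control islets was small (edgeR log2 −0.18, adjusted p = 0.035). Ndufa11 was not called in bKO islets (−0.14, adjusted p = 0.090), and the stretch of Ndufa4 held no match. These stretches are examples, and a link between motifs and responses was not tested. The windows of Cox5a, Cox7a2 and Atp5b, which rose, held no NRF1, ETS or YY1 match. Uqcr11, which was not called, held NRF1 and ETS matches, and Ndufc1, lower in control islets, held a YY1 match. Each stretch is the part of the 180 bases before the RefSeq start that lies outside annotated exons, 5′ to 3′ on the gene's strand. Capitals mark a match to the NRF1 or ETS motif on either strand.
Cox6a1 (chr5:115348982-115349129, minus strand, NRF1 match from −161): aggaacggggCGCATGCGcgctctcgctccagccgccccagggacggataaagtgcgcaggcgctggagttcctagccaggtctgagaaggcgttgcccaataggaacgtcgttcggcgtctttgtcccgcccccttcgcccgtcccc
Uqcrh (chr4:116075072-116075250, minus strand, ETS match from −10): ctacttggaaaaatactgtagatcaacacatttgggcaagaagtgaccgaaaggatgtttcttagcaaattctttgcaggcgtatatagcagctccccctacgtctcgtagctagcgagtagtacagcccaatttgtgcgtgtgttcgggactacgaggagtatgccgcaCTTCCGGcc
Sdhd (chr9:50603850-50603909, minus strand, ETS match from −46): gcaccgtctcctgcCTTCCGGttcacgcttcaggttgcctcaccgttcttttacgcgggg
Ndufa11 (chr17:56717686-56717761, plus strand, NRF1 match from −59): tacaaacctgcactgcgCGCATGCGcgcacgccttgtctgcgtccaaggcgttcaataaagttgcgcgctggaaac
Ndufa4 (chr6:11907498-11907630, minus strand, no match to the NRF1, ETS or YY1 motif): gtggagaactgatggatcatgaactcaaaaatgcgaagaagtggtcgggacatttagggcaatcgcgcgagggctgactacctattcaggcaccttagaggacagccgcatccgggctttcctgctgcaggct

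Complex IV showed the clearest response. All 11 of its members other than the tissue-specific isoforms and the Ndufa4 genes rose in both genotypes, by 0.33 to 0.70 in control and 0.35 to 0.70 in bKO islets on the log2 scale. This set was formed after the values were seen, and with library totals alone 10 of the 11 were called higher in each genotype, Cox5b being the exception. Cox4i1, the common form of a subunit that enters the complex early and regulates it (chr8:120668222-120674207, plus strand), measured 139, 134 and 135 CPM in untreated control islets and 204, 204 and 180 with cytokines. In bKO islets it measured 128, 132 and 140 CPM untreated and 217, 207 and 203 treated. Every treated library lay above every untreated one, and the log2 differences were 0.53 (SE 0.07, adjusted p = 4.0e-05) and 0.65 (SE 0.07, adjusted p = 7.0e-06). Cox7b, a small subunit (chrX:106015700-106022450, plus strand), rose from 60.3, 55.5 and 57.7 CPM to 101, 96.9 and 83.1 in control islets and from 57.8, 61.4 and 65.9 to 98.6, 93.1 and 97.9 in bKO islets. Its groups did not overlap either, with log2 differences of 0.70 and 0.65. Cox5a, a subunit on the matrix side, rose from 46.1 ± 1.4 to 66.2 ± 7.5 CPM in control and from 49.9 ± 2.1 to 81.0 ± 1.5 in bKO islets (log2 0.52 and 0.70). Cox7a2 rose by 0.60 and 0.56, Cox7c by 0.51 and 0.60, Cox6a1 by 0.40 and 0.46, and Cox8a by 0.38 and 0.39. Cox7a2l, known from supercomplexes of complexes III and IV, rose by 0.52 and 0.67.

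Ndufa4 fell while its paralogues rose. NDUFA4 is a subunit of complex IV, NDUFA4L2 is a paralogue known as a target of hypoxia-inducible factor, and AA467197 is a further paralogue whose transcript hosts the microRNA Mir147. Ndufa4 (chr6:11900292-11907497, minus strand) measured 73.9, 68.0 and 69.1 CPM in untreated control islets and 38.8, 33.2 and 36.2 with cytokines, a log2 difference of −0.96 (SE 0.15, adjusted p = 1.7e-04). In bKO islets it measured 68.0, 71.3 and 77.4 CPM untreated and 34.8, 57.3 and 39.7 treated, a log2 difference of −0.72 (SE 0.15, adjusted p = 0.0013). All treated libraries lay below all untreated ones, and the highest treated value came from the bKO library that stood apart; without it the difference was −0.89. In the same comparisons 13 of the 17 tested complex IV members rose.

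Ndufa4l2 (chr10:127514967-127517154, plus strand) rose more than any other tested member. It measured 2.65, 5.55 and 3.95 CPM in untreated and 25, 15.1 and 14.7 in treated control islets, and 3.72, 3.75 and 2.58 against 20.4, 20.3 and 19.5 in bKO islets. The groups did not overlap, and the log2 differences were 2.18 (SE 0.27, adjusted p = 3.3e-05) and 2.58 (SE 0.28, adjusted p = 9.1e-06). Ndufa4l2 overlaps Shmt2 on the opposite strand, and the sources name no strand setting of the counting, so that their reads may not be told apart. Shmt2, a mitochondrial enzyme of serine metabolism, went from 77.5 ± 2.9 to 100 ± 4.1 CPM in control islets (log2 0.37, adjusted p = 7.3e-04) and from 88.9 ± 7.7 to 99.5 ± 2.4 in bKO islets (log2 0.16, adjusted p = 0.063). AA467197, no member of the rule, went from 1.73 ± 0.54 to 30.4 ± 7.7 CPM and from 1.56 ± 0.24 to 36.1 ± 8.0, log2 differences of 4.12 and 4.53.

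Counted per kb of exon, the makeup of the 3 related genes turned over. Ndufa4 held 90.8% ± 3.1 (SD, n = 3) of their sum in untreated control islets and 39.0% ± 4.7 with cytokines, and 92.3% ± 1.7 and 39.3% ± 3.2 in bKO islets. Ndufa4l2 went from 6.61% ± 2.4 to 24.2% ± 2.8 and from 5.44% ± 1.3 to 23.4% ± 4.0. AA467197 went from 2.58% ± 0.83 to 36.9% ± 1.9 and from 2.30% ± 0.46 to 37.3% ± 1.2. A share within a library does not depend on the scaling between libraries, and no treated library overlapped an untreated one for any of the 3 shares.

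**Figure D2:**
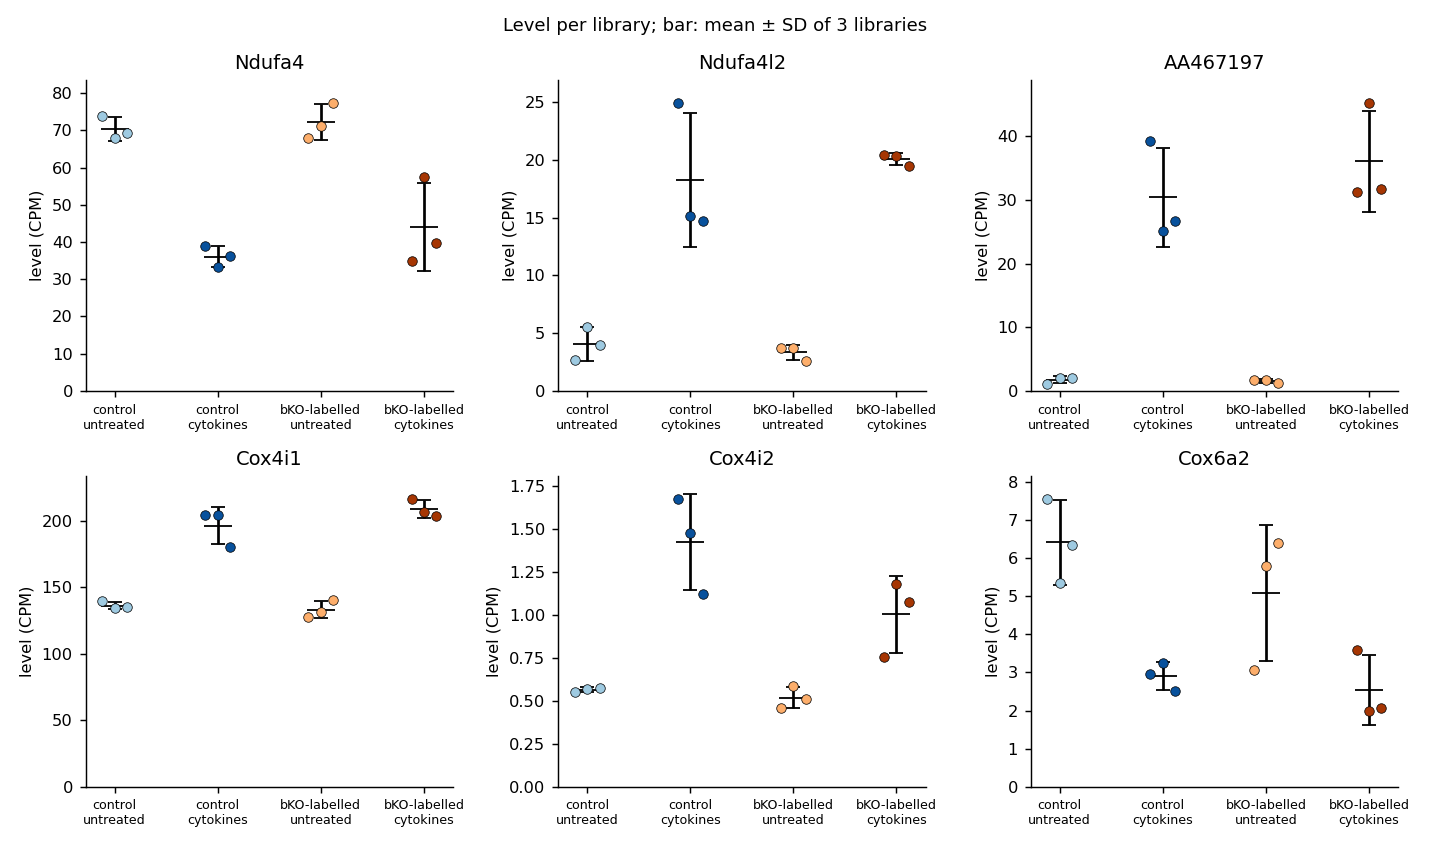
Level in CPM (vertical axes, linear from 0) of Ndufa4, Ndufa4l2, AA467197, Cox4i1, Cox4i2 and Cox6a2 in each of the 12 libraries by group, with bars for the mean ± SD of 3 libraries. Ndufa4 falls from 68.0–77.4 CPM untreated to 33.2–57.3 with cytokines while Ndufa4l2 rises from 2.58–5.55 to 14.7–25.

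The remaining alternative forms of complex IV were rare in islets. Cox4i2, the form known from lung and from low oxygen (chr2:152754173-152765037, plus strand), measured 0.548, 0.570 and 0.573 CPM untreated and 1.68, 1.48 and 1.12 treated in control islets, and 0.459, 0.583 and 0.511 against 0.753, 1.18 and 1.07 in bKO islets. Its log2 differences were 1.34 (SE 0.22, adjusted p = 2.7e-04) and 0.96 (SE 0.23, adjusted p = 0.0033), and per kb it made up 0.81% of the Cox4 pair untreated and 1.40% treated in control islets and 0.76% and 0.94% in bKO islets. Cox6a2, the heart and muscle form of Cox6a (chr7:128205435-128206387, minus strand), moved the other way. It measured 7.56, 5.35 and 6.34 CPM untreated and 2.97, 3.24 and 2.51 treated in control islets (log2 −1.14, SE 0.29, adjusted p = 0.0052). In bKO islets it measured 3.06, 5.81 and 6.41 against 3.60, 1.98 and 2.06, groups that overlapped (log2 −1.0, SE 0.30, adjusted p = 0.011, and −0.79, adjusted p = 0.049, without the library that stood apart). Its share of the Cox6a pair went from 6.65% ± 1.1 to 2.38% ± 0.20 and from 5.28% ± 1.9 to 1.96% ± 0.60. Cox6a2 overlaps Itgad on the opposite strand, and summed striated-muscle markers ranged over 2.02–5.12 CPM in the 12 libraries.

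The testis and muscle forms Cox6b2 and Cox7a1 were not called. Cox6b2 averaged 0.577, 0.555, 0.504 and 0.457 CPM and Cox7a1 averaged 0.362, 0.384, 0.307 and 0.217 CPM in untreated control, treated control, untreated bKO and treated bKO islets. The groups overlapped for both genes. Cox8b and Cox8c, the muscle and testis forms of Cox8, had no count in any library, which allows levels of up to 0.0310–0.0706 CPM (3 counts of each TMM-scaled total, counting error only). Cox7b2 had 7 counts in all, from 6 libraries. The other members too low to test were Ndufa11b with 9 counts, Ndufs6b with 31, Cox6c2 with 56 and the second Atp5o row with 0.

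In complex III the called members all rose, and 5 of 9 members in control and 2 of 9 in bKO islets were not called. Uqcr11, a small subunit, and Uqcrc2, a core protein, were not called in either genotype (log2 −0.12 and −0.07, and 0.18 and 0.06). Uqcrq (chr11:53427922-53430831, minus strand), a small subunit bound to cytochrome b, measured 81.1, 80.5 and 83.8 CPM untreated and 143, 150 and 122 treated in control islets, and 85.9, 86.9 and 100 against 172, 134 and 149 in bKO islets. The groups did not overlap, and its log2 differences were 0.76 (SE 0.10, adjusted p = 7.2e-05) and 0.74 (SE 0.10, adjusted p = 7.9e-05). Uqcrb rose by 0.59 and 0.50, Uqcr10 by 0.43 and 0.51 and Uqcrh, the hinge protein that binds cytochrome c1, by 0.33 and 0.44. Cyc1, the cytochrome c1 gene itself, was called in bKO islets alone (0.11 and 0.18), as were Uqcrc1 (0.12 and 0.14) and Uqcrfs1, the Rieske iron-sulfur protein (0.05 and 0.22). The difference between genotypes in these responses was not called for any of the 3.

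Members of both parts of complex V, F1 and Fo, rose, but not every member. Atp5b, the catalytic beta subunit (chr10:128083273-128090391, plus strand), measured 566, 541 and 561 CPM untreated and 820, 835 and 739 treated in control islets, and 561, 547 and 584 against 843, 763 and 784 in bKO islets. Treated and untreated libraries did not overlap, with log2 differences of 0.52 (SE 0.07, adjusted p = 7.5e-05) and 0.50 (SE 0.07, adjusted p = 9.8e-05). Atp5a1, the alpha subunit that alternates with beta in the same ring, measured 613, 562 and 588 CPM against 588, 595 and 560 in control islets and 572, 565 and 598 against 586, 547 and 546 in bKO islets. Its groups overlapped, and the log2 differences were −0.02 (adjusted p = 0.832) and −0.05 (adjusted p = 0.543). With library totals alone Atp5a1 gave −0.25 (adjusted p = 0.0023) in control islets. Atp5c1, the gamma subunit of the central stalk, rose by 0.55 and 0.44. Atp5s, coupling factor B (chr12:69724950-69744660, plus strand), was the member of this group that fell. It measured 7.88, 6.86 and 7.35 CPM against 4.05, 4.25 and 3.67 in control islets and 5.84, 7.13 and 6.45 against 3.58, 3.32 and 3.60 in bKO islets, log2 differences of −0.88 and −0.89.

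The 3 genes for subunit c, the rotor ring of complex V, encode the same mature protein and moved apart. Atp5g2 rose from 59.9 ± 0.88 to 83.6 ± 6.1 CPM in control islets (log2 0.48) and from 57.2 ± 4.6 to 86.9 ± 8.1 in bKO islets (0.60). Atp5g1 rose from 74.8 ± 2.2 to 95.1 ± 6.9 CPM (0.35) and from 80.7 ± 1.6 to 96.4 ± 14 (0.26, adjusted p = 0.030). Atp5g3 measured 127 ± 4.2 and 115 ± 9.5 CPM in control islets (−0.15, adjusted p = 0.13) and 126 ± 6.9 and 123 ± 9.8 in bKO islets (−0.04, adjusted p = 0.707). Per kb of exon, Atp5g3 held 53.3% ± 0.58 of the sum of the 3 genes in untreated and 43.2% ± 1.5 in treated control islets, and 53.4% ± 0.32 and 44.2% ± 4.3 in bKO islets. Atp5g2 took up most of that share, going from 32.7% ± 0.48 to 41.0% ± 1.4 and from 31.4% ± 1.0 to 40.5% ± 2.7, while Atp5g1 went from 13.9% ± 0.18 to 15.9% ± 0.16 and from 15.2% ± 0.91 to 15.3% ± 1.7. The Atp5g1 call in bKO islets was lost under 3 other settings and with 5 of 6 libraries left out in turn, at log2 differences of 0.02 to 0.26.

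Complex II has no mitochondrially encoded subunit, and its 4 genes changed little. Sdha, the flavoprotein that oxidises succinate, measured 243, 220 and 221 CPM against 286, 309 and 267 in control islets (log2 0.33, SE 0.09, adjusted p = 0.0093) and 219, 211 and 228 against 275, 214 and 245 in bKO islets (0.16, adjusted p = 0.157). The groups overlapped in bKO islets, where the lowest treated value came from the library that stood apart; without it the difference was 0.31 (adjusted p = 0.011). Sdhb, the iron-sulfur subunit, averaged 62.1 and 65.8 CPM in control and 61.3 and 65.5 in bKO islets and was not called. Sdhc, a membrane anchor, measured 76.0, 75.1 and 76.1 CPM against 70.8, 63.1 and 62.0 in control islets, where it fell by 0.21 (adjusted p = 0.013), and gave −0.06 in bKO islets. Sdhd, the other anchor (chr9:50596357-50603812, minus strand), measured 70, 68.9 and 66.3 CPM against 82.2, 80.8 and 75.6, and 62.0, 66.3 and 69.1 against 78.4, 74.8 and 77.2, rising by 0.22 in both genotypes. With library totals alone Sdha and Sdhd were not called and Sdhb was lower in control islets (−0.15, adjusted p = 0.038).

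Complex I had members moving in both directions. Its 7 core subunits, which carry the flavin and the iron-sulfur clusters, had 2 members higher and 1 lower in each genotype, with medians of 0.03 and 0.04. The 29 tested supernumerary members had 7 higher and 6 lower in control islets and 9 and 3 in bKO islets. Ndufs1, the largest subunit, with iron-sulfur clusters (chr1:63143596-63176833, minus strand), measured 77.7, 74.5 and 74.5 CPM untreated and 55.9, 55.4 and 53.6 treated in control islets, and 74.4, 73.5 and 80.4 against 53.2, 51.2 and 50.6 in bKO islets. The groups were well apart, with log2 differences of −0.46 (SE 0.06, adjusted p = 3.2e-05) and −0.56 (SE 0.06, adjusted p = 6.3e-06). In the other direction, the core subunit genes Ndufv1, which binds NADH, and Ndufs3 rose by 0.31 and 0.34 and by 0.40 and 0.32, and the supernumerary genes Ndufa2 and Ndufb6 rose by 0.41 and 0.41 and by 0.35 and 0.49. With library totals alone Ndufs3 was not called in either genotype (0.17 and 0.09), and Ndufs1 kept its call.

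The complex I members that fell were otherwise supernumerary. Ndufb2 averaged 8.00 ± 0.22 and 6.03 ± 0.69 CPM in control islets and 8.63 ± 1.3 and 6.40 ± 0.048 in bKO islets (log2 −0.40 and −0.43), and Ndufc2 fell by 0.20 and 0.36. Ndufa3 (−0.42), Ndufb4 (−0.36), Ndufc1 (−0.31) and Ndufa11 (−0.18) were called lower in control islets alone. Ndufb4 measured 16.5, 17.7 and 16.2 CPM against 13.8, 13.3 and 12.1 in control islets and 15.7, 14.0 and 15.4 against 13.4, 15.6 and 14.1 in bKO islets, and Ndufc1 measured 19.7, 18.6 and 18.9 against 16.6, 15.7 and 14.0, and 16.8, 18.6 and 17.4 against 17.5, 17.0 and 17.3. For both genes the groups were apart in control islets and overlapped in bKO islets, and the difference between the responses was 0.30 (adjusted p = 0.429) and 0.28 (adjusted p = 0.414). The pseudogene Ndufb4c was at 0.158 to 0.309 CPM on average and was called lower in bKO islets (−0.97, adjusted p = 0.046), a call lost under 5 other settings and with 4 of 6 libraries left out in turn.

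Counts of Ndufs5, a complex I subunit, varied inversely with those of a near-identical copy. Ndufs5 (chr4:123712710-123718202, minus strand) measured 14.7, 32.5 and 36.6 CPM in untreated control, 14.8, 40.9 and 15 in treated control, 15.8, 14.0 and 14.0 in untreated bKO and 29.3, 15.7 and 27.9 in treated bKO islets. BC002163, at chr16:42955631-42955949, measured 20.6, 1.12 and 1.22, then 24.8, 1.39 and 19.4, then 20.2, 19.9 and 22.7, then 13.0, 20.7 and 12.1 CPM in the same libraries. The libraries low in one row were high in the other. The copy measured 1.12 to 1.39 CPM where Ndufs5 measured 32.5 to 40.9. It measured 12.1 to 13.0 against 27.9 to 29.3 of Ndufs5, and 19.4 to 24.8 against 14.0 to 15.8. The cause of these steps was not tested. The sum ranged only from 33.6 to 42.3 CPM, a ratio of 1.26 between the highest and the lowest library against 2.93 for Ndufs5 alone. The copy aligns to 319 of the 321 coding bases of Ndufs5 and differs at 2 of them, T81C and A105G, counted from 1 at the first coding base, with the Ndufs5 base first. The stretch from base 51 to base 135 shows how little separates the rows, and capitals mark the differing bases.
Ndufs5: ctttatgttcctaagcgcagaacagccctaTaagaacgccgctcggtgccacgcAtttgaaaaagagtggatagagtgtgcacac
BC002163: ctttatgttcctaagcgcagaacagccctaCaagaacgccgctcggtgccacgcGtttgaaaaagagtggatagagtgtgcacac

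Ndufs5 as deposited gave log2 differences of −0.24 (adjusted p = 0.64) with cytokines in control and 0.73 (adjusted p = 0.15) in bKO islets, and −0.94 between untreated genotypes (SE 0.42, unadjusted p = 0.047, adjusted p = 0.892). With the copy's counts added, an alternative chosen after seeing the data, these became 0.13 (adjusted p = 0.243), 0.16 (adjusted p = 0.148) and −0.00 (adjusted p = 1.0). Annotated transcripts gave 24 close copies of 14 members in all, of at least 97% identity over at least 100 bases. Only Ndufs5 and Ndufa12 had copies with more than 5 counts per 100 of their own. With its copy added, Ndufa12 rose by 0.22 in control islets and lost its call in bKO islets (0.16, adjusted p = 0.100).

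**Figure D3:**
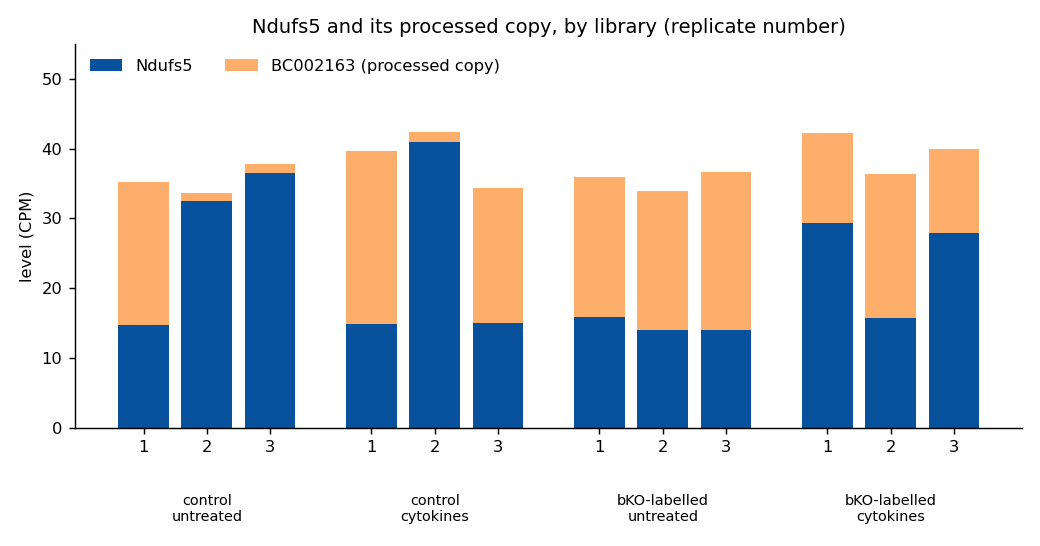
Level in CPM (vertical axis) of Ndufs5 and, stacked on it, of its copy BC002163 in each of the 12 libraries, numbered by replicate within groups. Ndufs5 alone ranges from 14.0 to 40.9 CPM, while the sum stays between 33.6 and 42.3.

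The summed levels of nuclear and mitochondrially encoded subunits parted for complexes I and III. For complex IV, whose mitochondrial sum is nearly all mt-Co1, they did not. The 7 mt-Nd genes and mt-Cytb fell in both genotypes, with log2 differences of −1.71 and −1.25 for mt-Nd1 and −1.20 and −0.99 for mt-Cytb. Summed over complex I, the nuclear members went from 1749 ± 11 to 1851 ± 130 CPM in control islets and from 1764 ± 54 to 1873 ± 113 in bKO islets, and the mitochondrial genes from 8037 ± 608 to 3240 ± 87 and from 6508 ± 354 to 3269 ± 471. The ratio of the sums, which does not depend on the scaling between libraries, went from 0.218 ± 0.015 to 0.571 ± 0.028 and from 0.272 ± 0.016 to 0.583 ± 0.10. For complex III it went from 0.213 ± 0.019 to 0.597 ± 0.035 and from 0.250 ± 0.025 to 0.617 ± 0.068. For complex IV it was 0.227 ± 0.015 and 0.239 ± 0.013 in control islets and 0.273 ± 0.0055 and 0.285 ± 0.019 in bKO islets. The mitochondrial sum of complex IV is 99.4% to 99.6% mt-Co1, the catalytic subunit, since mt-Co2 and mt-Co3 were counted at only 7.57–14.7 CPM. mt-Co1 rose by 0.34 (adjusted p = 0.013) and 0.44 (adjusted p = 0.0031), and with library totals alone it was not called (0.11, adjusted p = 0.276, and 0.21, adjusted p = 0.057). mt-Co2, mt-Co3, mt-Atp6 and mt-Atp8 were not called with TMM scaling. The log2 differences of mt-Co2 were −0.21 in control and 0.04 in bKO islets. With library totals alone mt-Co2 was called lower in control islets (edgeR log2 −0.44, adjusted p = 0.011) and was not called in bKO islets (−0.20, adjusted p = 0.21). The ratio of complex IV therefore describes mt-Co1 and not mt-Co2.

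**Figure D4:**
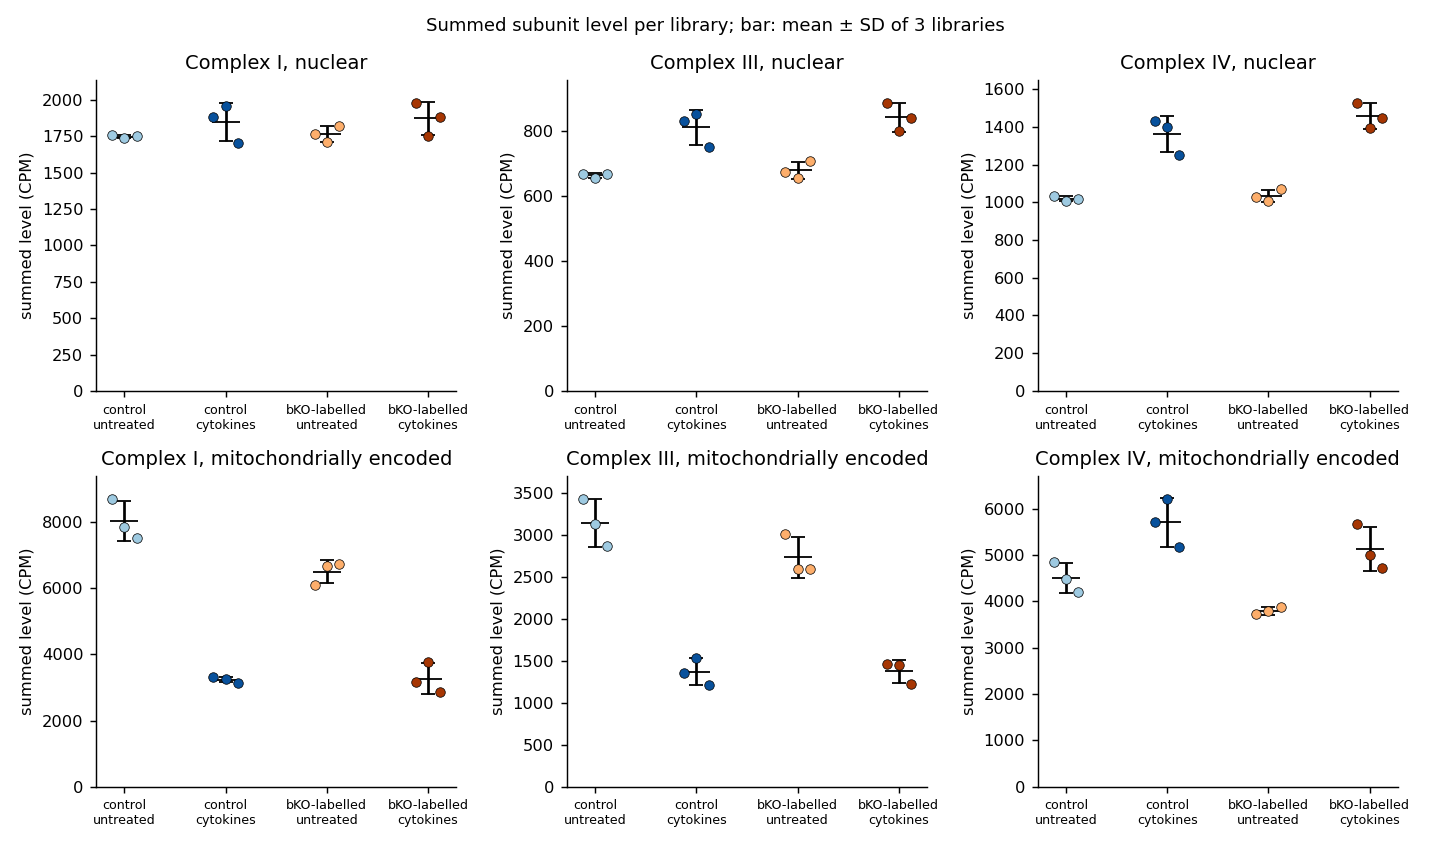
Summed level in CPM (vertical axes) of the nuclear (top) and of the mitochondrially encoded (bottom) subunits of complexes I, III and IV in the 12 libraries by group, with bars for the mean ± SD of 3 libraries. The mitochondrial sum of complex I falls from 8037 to 3240 CPM in control islets on average while the nuclear sum goes from 1749 to 1851.

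The nuclear sums of the other complexes in control islets were 434 ± 15 and 498 ± 29 CPM for complex II, 665 ± 8.0 and 813 ± 54 for complex III, 1019 ± 13 and 1362 ± 97 for complex IV and 2256 ± 49 and 2675 ± 166 for complex V. In bKO islets they were 421 ± 15 and 459 ± 36, 680 ± 26 and 843 ± 44, 1036 ± 32 and 1457 ± 67, and 2272 ± 84 and 2708 ± 118. Complex IV grew the most, 1.34-fold in control and 1.41-fold in bKO islets, and complex I the least, 1.06-fold in each. Per kb of exon, Atp5a1, Ndufa1 and Cox8a were the highest members in untreated control islets, at 187, 166 and 160 CPM per kb.

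The responses of both genotypes to cytokines ran in parallel across members, and no difference between them was called. Of the 83 tested members, 35 rose in both genotypes, 6 fell in both, 7 were called in control islets alone, 9 in bKO islets alone and 26 in neither. None was called in opposite directions. Pearson's r between the responses across the members was 0.877 and Spearman's rho 0.856, given as a description, since genes are not independent replicates. Over all genes tested, 26.8% were called higher and 33.9% lower in control islets, and 28.8% and 33.6% in bKO islets. The overlap and the correlation over all genes are not given here. This agreement is therefore not shown to be a trait of the members. The test of the difference between the responses called no member, and 0.0% of all genes. Its smallest adjusted p among members was 0.414, and 4 members had an unadjusted p under 0.05, against 10.9% of all genes. The 95% interval of this difference, somewhat narrower than the test implies, lay within 0.5 log2 units of 0 for 74 of 83 members. DESeq2 gave no call either.

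**Figure D5:**
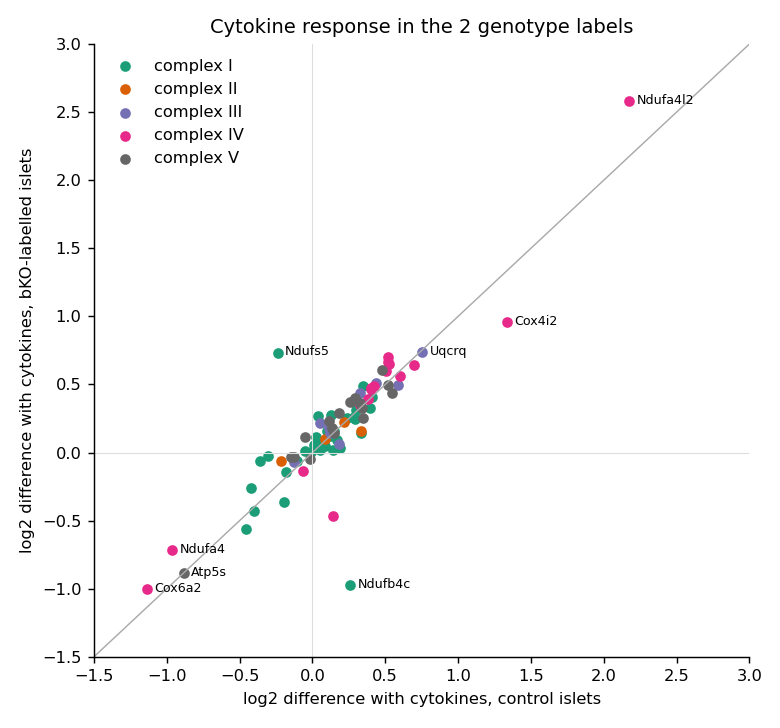
Log2 difference with cytokines in control islets (horizontal axis) against that in bKO islets (vertical axis) for the 83 tested members, coloured by complex. The line marks equal differences. Ndufa4l2 lies highest on both axes (2.18 and 2.58), and Cox6a2, Ndufa4 and Atp5s lie lowest in control islets (−1.14, −0.96 and −0.88).

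No member was called between the genotypes. In untreated islets 0.0758% of all genes were called, none of them a member, and 2 members (Ndufc2 and Ndufs5) had an unadjusted p under 0.05, against 5.55% of all genes. Ndufc2 averaged 59.6 ± 1.2 CPM in control and 69.0 ± 4.0 in bKO islets without overlap (log2 0.21, unadjusted p = 0.0167, adjusted p = 0.677). DESeq2 called no member here. The next by unadjusted p were Ndufa1 (0.19, adjusted p = 0.910), Ndufb4 (−0.16) and Cox6c (0.12). The 95% interval lay within 0.5 log2 units of 0 for 76 of 83 members, so differences of about that size may have been within reach of the data for most members. These intervals are narrower than the test implies. For Ndufa1 the interval of 0.018 to 0.36 left out 0, while the edgeR test gave an unadjusted p of 0.052.

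With cytokines 0.232% of all genes were called between genotypes, again with no member among them, and 6 members had an unadjusted p under 0.05, against 17.8% of all genes. Ndufs4, a supernumerary subunit of the arm of complex I that oxidises NADH (chr13:114287795-114388258, minus strand), had the smallest. It measured 32.1, 31.2 and 28.5 CPM in treated control and 38.3, 36.5 and 38.0 in treated bKO islets, groups that did not overlap (log2 0.30, SE 0.07, adjusted p = 0.083). Cox5a measured 74.7, 63.2 and 60.5 CPM against 79.5, 82.5 and 80.9, again without overlap (log2 0.29, adjusted p = 0.127). DESeq2 called both, Ndufs4 at 0.28 (adjusted p = 0.0197) and Cox5a at 0.28 (adjusted p = 0.0431). The 0.232% above is the share called by edgeR. The share of all genes called by DESeq2 is not given here, so its 2 calls have no background to be read against. Ndufa3 (0.33), Cox6c (0.19), Sdha (−0.23) and Cox4i2 (−0.51) had adjusted p values from 0.213 to 0.260 in edgeR.

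Genes that assemble the complexes are given beside the subunits; the difference between the 2 kinds of genes was not tested. Of 15 tested complex I assembly factors, 0 rose and 5 fell in control and 1 rose and 5 fell in bKO islets (medians −0.18 and −0.17), so that 33.3% fell in each genotype, near the share of all genes called lower (33.9% and 33.6%). Of 22 complex IV assembly factors, 4 rose and 6 fell in control and 4 and 7 in bKO islets. Lrpprc, which stabilises mitochondrial mRNA, fell from 79.0 ± 3.8 to 28.7 ± 1.3 CPM and from 77.7 ± 0.84 to 28.5 ± 2.2 (log2 −1.46 and −1.45), while Cmc1 and Sco1, which act in the maturation of Cox1 and the copper site of Cox2, rose by 0.63 and 0.89 and by 0.68 and 0.79. Complex II assembly factors gave 2 higher and 1 lower of 4 in control and 1 and 1 in bKO islets, complex III factors 0 and 2, and 0 and 1, of 6, and complex V factors 1 and 1 of 3 in both. Of 19 genes for electron carriers and coenzyme Q synthesis, 3 rose and 8 fell in control and 5 and 5 in bKO islets. Among them Gpd2, the mitochondrial glycerol phosphate dehydrogenase that feeds electrons to coenzyme Q, fell from 142 ± 17 to 59.9 ± 3.3 CPM and from 129 ± 10.5 to 59.8 ± 5.0, and Coq8a fell by 1.44 and 1.56.

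Of 17 regulators of respiratory genes, 7 rose and 5 fell in each genotype. Esrrg, a nuclear receptor of oxidative metabolism, fell from 17.8 ± 0.94 to 3.46 ± 0.30 CPM and from 17.4 ± 0.43 to 1.90 ± 0.65, whereas its relative Esrra rose by 0.89 and 0.84. Hif1a rose by 0.98 and 1.40. Of 12 HIF target genes, 6 rose and 3 fell in control and 9 and 2 in bKO islets. Of all genes tested, 26.8% rose and 33.9% fell in control islets, and 28.8% and 33.6% in bKO islets. The glucose transporter gene Slc2a1, named for its small adjusted p, rose from 70.5 ± 14 to 400 ± 52 CPM in control islets. In bKO islets it rose from 64.5 ± 8.0 to 499 ± 41 CPM. Whether HIF acted on any member was not tested. Of 5 inflammation genes whose products are known to act on the respiratory chain, 4 rose and 1, Ucp2, fell in each genotype. Among the 4 is AA467197, already given above as a paralogue of Ndufa4. In control islets Nos2, which makes nitric oxide, went from 0.294 ± 0.22 to 1149.5 ± 39 CPM. Acod1, which makes the complex II inhibitor itaconate, went from 0.567 ± 0.15 to 216 ± 9.2, and Sod2, the mitochondrial superoxide dismutase, from 77.4 ± 1.8 to 657 ± 39. Subunits and partners that the symbol pattern misses were mixed: Usmg5, a complex V subunit, rose by 0.62 and 0.67, Higd2a, which helps supercomplexes form, fell by 0.51 and 0.34, Atpif1, the inhibitor of complex V, fell by 0.24 in control islets, and Ndufab1 was not called.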

How the data were processed

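Total RNA of 12 islet libraries was sequenced on an Illumina NovaSeq instrument. The submitters' processing notes name STAR 2.5.2a and featureCounts 1.6.2 with GRCm38, and DESeq2 1.30.0, cutadapt 1.16 and FastQC 0.11.7. They name no annotation release or strand setting. The authors deposited raw counts per gene, in a full table of 55536 rows, used here, and in a table of the 26532 rows with a total of at least 10, used as an alternative. All rows occur in GENCODE M21, which gave lengths and positions. Groups follow the sample titles. The treated libraries are numbered 1 to 3 in titles and otherwise in descriptions, and the titles' numbers were used.

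Genes were kept with filterByExpr, scaled by TMM and put to the quasi-likelihood test of edgeR 4.0.16 (R 4.3.3) over all 12 libraries, with 1 coefficient per group and Benjamini-Hochberg adjustment over all 19800 genes tested, 83 of them members. CPM values are scaled by TMM, and per-kb values are divided by exon length. The ± values are SD over 3 libraries. Limits from 0 counts cover counting error only. The 95% intervals are the estimate ± the normal quantile times the SE of the edgeR fit, which holds the spread between libraries. With few libraries the normal quantile is too small, so the intervals are somewhat too narrow. The script was tested on simulated data. Alternatives used DESeq2 1.42.0, limma 3.58.1, other scalings, filters and thresholds, each library left out, and, chosen after seeing the data, counts of close copies found with blastn 2.17.0 added to the members. Same-group libraries differed by more than sampling noise (smallest chi-square per degree of freedom 15.0 over 12 pairs). Values were named for members changed at least 2-fold, up to 8 per direction with the smallest adjusted p with cytokines, up to 5 with the smallest p between genotypes, all alternative forms, the Sdh genes and members too low to test, and up to 3 genes per list. Other names were chosen after their values were seen. The members and lists were chosen with earlier results of these data known.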

Additional observations from a re-analysis of the deposited data

How the results depend on the processing

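The number of members higher with cytokines in control islets stood at 37 and fell to 19 with library totals alone. The number lower, 11, became 27 with library totals alone, and 7 with DESeq2's size factors, with DESeq2 and at an adjusted p of 0.01. In bKO islets the 43 higher became 22 with library totals alone, and the 7 lower became 25 with library totals alone and 4 at an adjusted p of 0.01. The median log2 difference turned from 0.15 to −0.08 (−0.0805) in control and from 0.18 to −0.05 (−0.0545) in bKO islets with library totals alone, and was 0.25 in bKO islets with DESeq2's size factors. With library totals the sign turned for 26 members in control and 27 in bKO islets, among them Sdhb (−0.15, −0.1463) and Sdhd (−0.01, −0.0116) in control and Sdha (−0.07), Sdhb (−0.13) and Sdhd (−0.01, −0.00786) in bKO islets. DESeq2 called 2 members between genotypes with cytokines, and its share of all genes called is not given here.

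Leaving out each library in turn gave 34 to 42 members higher and 7 to 10 lower in control islets, with medians of 0.119 to 0.228, and 36 to 49 higher and 6 to 7 lower in bKO islets, with medians of 0.145 to 0.275. In control islets the lowest count of lower members, 7, came without replicate 3 of the treated controls, and in bKO islets the highest count of higher members, 49, came without replicate 2 of the treated bKO group, which stood apart in its markers. Without that library complex I gave 15 higher and 4 lower in bKO islets.

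Replicate numbers were not found to pair the libraries: of 18 pairs with the same number, 1 had a correlation of deviations over 0.1 (range −0.488 to 0.156). Both ends of this range are pairs across genotypes, which cannot share a mouse. Same-numbered pairs within a genotype ranged from −0.103 to 0.096. The numbers may not follow the mice, so this does not settle whether libraries share a mouse. With the replicate block, 36 members were higher and 9 lower in control and 39 and 6 in bKO islets, and no member was called between genotypes. Limma-voom, both filters, the deposited filtered table and TMM without abundant genes kept every count of members within 1.5 times its value above. Cox4i2 and Atp5g shares are set by the exon lengths used: without length Atp5g3 held 48.5% in untreated and 39.1% in treated control islets. Atp5g2 then went from 22.9% to 28.5% and Atp5g1 from 28.6% to 32.4%.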
